A study of Mus musculus with 10 samples.

Results

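The corticosteroid receptor gene Nr3c1 and 5 genes known to respond to it, Fkbp5, Per1, Tsc22d3, Zbtb16 and Klf9, were followed from mouse ureteric bud (UB) organoids to collecting duct (CD) organoids and adult CD cells. These 6 genes, chosen by symbol, are 6 of the 39273 genes in the deposited count table, and all 6 passed the filter on low counts that left 24410 genes for testing. There were 10 RNA-seq libraries in 5 groups of 2. UB organoids were grown from UBs taken at embryonic day 11 from Wnt11-RFP +/- mice on a C57BL/6 x Swiss Webster background, and were collected after 5, 10 or 20 days in mouse UB culture medium. CD organoids came from UB organoids that had reached day 10 and were then moved to a CD differentiation medium. The adult mouse CD (adult mCD) libraries are described in the methods as Hoxb7-Venus+ cells, a reporter active in the UB lineage, sorted from kidneys of mice about 2 months old. Their labels instead call them organoids of embryonic origin with the Wnt11-RFP genotype, and the methods were followed here. Nothing in the labels ties the 2 libraries of a group to separate cultures or animals, so the p-values measure only the spread between these libraries, which may be technical.

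The glucocorticoid receptor, encoded by Nr3c1, waits in the cytoplasm on a heat shock protein 90 complex, and on binding corticosterone or cortisol it moves to the nucleus and switches on target genes through palindromic response elements. Its close relative, the mineralocorticoid receptor Nr3c2, binds aldosterone and glucocorticoids alike, and in the collecting duct the enzyme Hsd11b2 inactivates glucocorticoids so that aldosterone can act. Fkbp5 encodes a cochaperone that lowers the receptor's affinity for hormone and is itself induced, while Tsc22d3 (GILZ), Per1, Zbtb16 (PLZF) and Klf9 are transcriptional regulators that the activated receptors induce in many tissues. Both culture media of the study contained B-27, a supplement whose published formula includes corticosterone, and the differentiation medium added aldosterone and vasopressin together with an inhibitor of MEK and one of Notch processing. No culture without steroid was among these libraries, so an effect of steroid, of the other additions and of time in culture cannot be told apart.

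Depth ran from 11913613 to 24536676 counts per library. The libraries of days 5 and 10 had 22858971 counts or more, with 0.969% to 1.58% on mitochondrial genes. Those of day 20, CD organoids and adult mCD had at most 16759872 counts, with 3.10% or more on mitochondrial genes. Whether these sets were prepared apart is not given in the sources used here. Comparisons across these sets cannot tell such a difference from a change between groups. CD organoids against day 10 crosses the sets, and CD organoids against day 20 does not. Levels are given as CPM, the counts of a gene per 1000000 counts of its library, scaled with TMM factors between 0.792 and 1.12, and 3 counts correspond to between 0.109 and 0.241 CPM. The adult libraries held transcripts of other nephron segments. The summed level of 6 proximal tubule markers was 3388 to 4022 CPM there against 6.12 to 34.0 CPM in the organoids, that of 3 markers of the thick ascending limb was 3295 to 3486 CPM against 0 to 5.61 CPM, and that of 4 endothelial markers was 499 to 506 CPM against 0.256 to 2.44 CPM. The 3 distal convoluted tubule markers summed to 465 to 514 CPM in the adult libraries and 1.5 to 14.4 CPM in the organoids. Principal cell markers summed to 11520 to 11990 CPM in the adult libraries and 1334 to 1496 CPM in CD organoids. Avpr2, the vasopressin receptor of these cells, reached at most 0.314 CPM in any library, while Aqp2 had 4542 and 4374 CPM in adult mCD. Whether counting of Avpr2 lost reads was not tested, so its values are not read as absence of the receptor. A list of 18 immediate early and stress genes summed to 30180 to 33400 CPM in the adult libraries and 8306 to 10450 CPM in UB organoids of day 20, against 575 to 1005 CPM in the other 6 libraries. These groups of transcripts move with several results below, and their part in them was not tested.

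The receptor gene rose step by step. Nr3c1 (ENSMUSG00000024431.15, chr18:39410545-39519421, minus strand) stood at 16.4 and 13.5 CPM at day 5, 26.8 and 25.1 CPM at day 10, 57.6 and 57.1 CPM at day 20, 60.1 and 60.9 CPM in CD organoids, and 109.8 and 109.2 CPM in adult mCD. No group overlapped its neighbour in this order, yet day 20 and CD organoids differed by less than the test could separate. Between them the log2 difference was 0.08 (95% interval -0.11 to 0.27), with an adjusted p of 0.538 (edgeR's quasi-likelihood test, Benjamini-Hochberg adjusted over all tested genes, as for each adjusted p that follows unless another tool is named). From day 5 to day 10 the level rose by 0.79 ± 0.09 (log2, SE, n = 2 libraries a group, adjusted p = 2.95e-05), and from day 10 to day 20 it rose by 1.14 ± 0.09 (adjusted p = 1.09e-06). Against UB organoids of day 10, the stage at which their differentiation began, CD organoids were higher by 1.22 ± 0.09 (adjusted p = 7.66e-08), a fold of 2.33. Adult mCD exceeded CD organoids by 0.86 ± 0.09 (adjusted p = 1.84e-06). In bulk libraries of this kind, a change in the number of expressing cells and a change in the RNA per cell cannot be told apart.

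**Figure D1:**
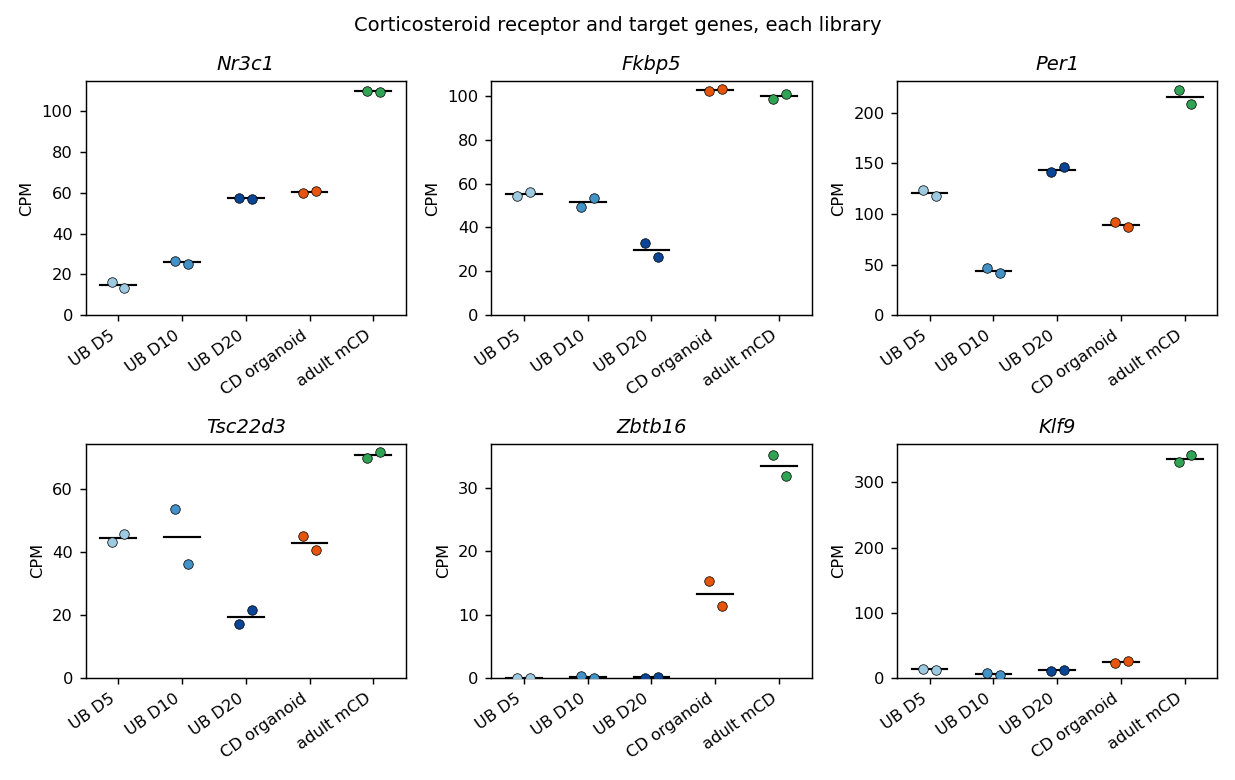
Level of each of the 6 genes in every library, in CPM on a linear axis that starts at 0. Points are single libraries and lines are means of 2 libraries. Nr3c1 climbs across the 5 groups, Fkbp5 stands at about 102 CPM in CD organoids and 99.8 CPM in adult mCD, Zbtb16 is near 0 in the 6 UB libraries, and Klf9 reaches 336 CPM in adult mCD.

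The second corticosteroid receptor rose more steeply. Nr3c2 had 1.02 and 1.47 CPM at day 5, 4.08 and 3.39 CPM at day 10, 9.04 and 10.4 CPM at day 20, 40.6 and 41.5 CPM in CD organoids, and 165.7 and 154.0 CPM in adult mCD. CD organoids exceeded UB organoids of day 10 by 3.44 ± 0.13 (log2, SE, adjusted p = 9.43e-11), and adult mCD exceeded CD organoids by 1.96 ± 0.10 (adjusted p = 2.13e-09). To set the 2 receptors side by side, CPM were divided by the kilobases of exon of each gene in GENCODE M21. On this per-length scale the ratio of Nr3c2 to Nr3c1 was 0.0742 to 0.217 in the 6 UB libraries, 0.802 and 0.808 in CD organoids, and 1.79 and 1.67 in adult mCD. The balance of the receptor transcripts thus lay with Nr3c1 in all organoid libraries and with Nr3c2 in both adult libraries. The part of cells of other nephron segments in the adult levels of Nr3c2 and Hsd11b2 was not tested. Hsd11b2 was at 1.76 to 8.32 CPM in UB organoids, 44.6 and 32.8 CPM in CD organoids, and 2634 and 2573 CPM in adult mCD. That difference of adult mCD from CD organoids, 6.07 ± 0.20 on the log2 scale (adjusted p = 3.46e-11), was the largest among the receptor and ligand genes. Hsd11b1, which regenerates active glucocorticoid, was at no more than 0.498 CPM in any organoid library and at 11.8 and 14.9 CPM in adult mCD, where the proximal tubule markers were also high.

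**Figure D2:**
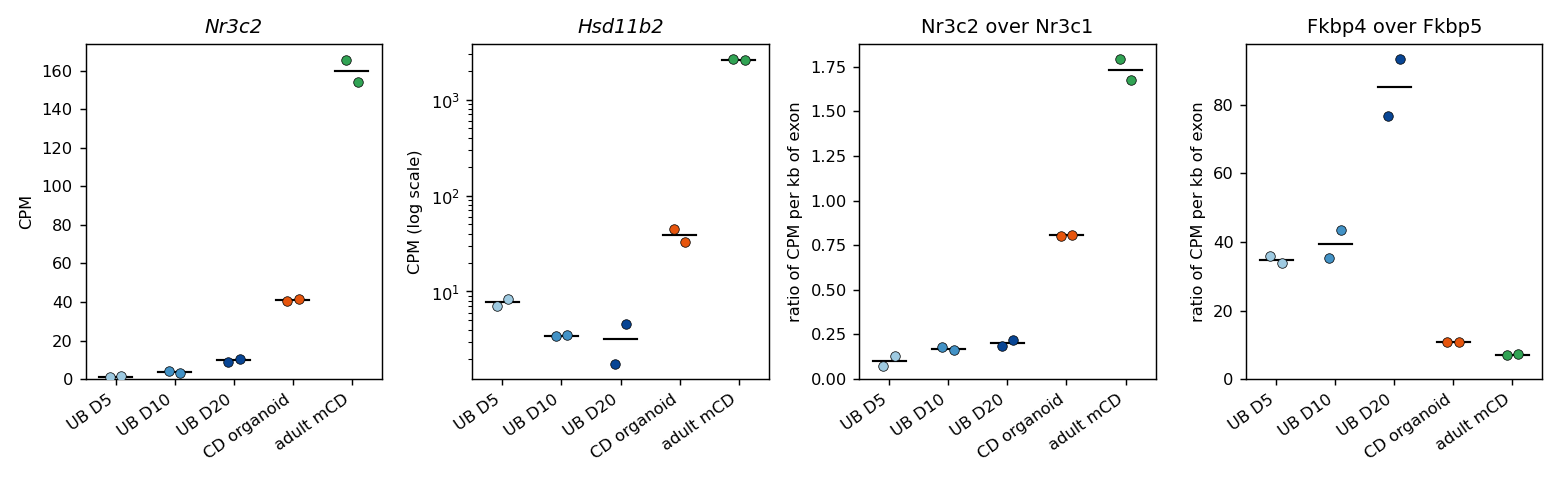
From the left, Nr3c2 in CPM, Hsd11b2 in CPM on a log axis, the ratio of Nr3c2 to Nr3c1, and the ratio of Fkbp4 to Fkbp5, both ratios from CPM per kilobase of exon. Points are single libraries and lines are means of 2. The receptor ratio passes 1 only in the 2 adult libraries, and the cochaperone ratio falls from 33.7 or more in the UB libraries to 10.7 in CD organoids and 7.17 in adult mCD.

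Fkbp5, the cochaperone that damps the receptor, separated the UB organoids from the more mature groups. It (ENSMUSG00000024222.17, chr17:28399094-28517527, minus strand) measured 54.3 and 56.3 CPM at day 5, 49.5 and 53.4 CPM at day 10, 33.1 and 26.4 CPM at day 20, 102.0 and 102.8 CPM in CD organoids, and 98.7 and 100.9 CPM in adult mCD. All 6 UB libraries lay below the lowest of the other 4. CD organoids were higher than UB organoids of day 10 by 0.99 ± 0.09 (log2, SE, adjusted p = 7.02e-07) and higher than those of day 20 by 1.78 ± 0.10 (adjusted p = 5.05e-09). Adult mCD and CD organoids were not separated, at -0.04 ± 0.09 (95% interval -0.23 to 0.16, adjusted p = 0.776). That near-equality depended on the scaling, since the difference was -0.43 (adjusted p = 0.00163) with library totals in place of TMM factors and 0.01 (adjusted p = 0.943) with DESeq2. Across the UB organoids the gene did not change detectably from day 5 to day 10 (-0.10 ± 0.09, adjusted p = 0.424) and fell by 0.79 from day 10 to day 20 (SE 0.10, adjusted p = 4.75e-05), while Nr3c1 rose over the same interval.

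Fkbp4, the paralog that promotes nuclear transfer of the receptor and competes with Fkbp5 for the same complex, was lower in CD organoids and adult mCD than in UB organoids. Its level was 574.9 and 560.3 CPM at day 5, 517.0 and 685.4 CPM at day 10, 750.3 and 727.5 CPM at day 20, 323.6 and 325.3 CPM in CD organoids, and 208.5 and 214.0 CPM in adult mCD. Against UB organoids of day 10, CD organoids differed by -0.89 ± 0.10 (log2, SE, adjusted p = 7.49e-06), and adult mCD differed from CD organoids by -0.62 ± 0.11 (adjusted p = 0.000223). Per kilobase of exon, Fkbp4 exceeded Fkbp5 by a factor of 33.7 to 43.5 at days 5 and 10, 76.9 and 93.4 at day 20, 10.7 in both CD organoid libraries, and 7.16 and 7.18 in adult mCD. The ratio therefore stood higher in each UB library than in any CD or adult library. Of the chaperones and cofactors of the receptor that were listed beside Fkbp5, Fkbp4 among them, 0 of 13 were called in any of the 6 comparisons at the threshold used here, an adjusted p no higher than 0.01 and a change beyond 4-fold. By that rule 10.7% of all tested genes were called, in either direction, in CD organoids against day 10, 9.46% against day 20, 14.3% in adult mCD against CD organoids and 21.6% against the mean of the UB organoids, with 3.41% and 3.39% between UB days. With an adjusted p of 0.05 and no limit on the fold, 10, 10, 11 and 13 of the 14 that include Fkbp5 passed in the first 4 of these, beside 47.2%, 42.2%, 49.8% and 62.4% of all genes. Hsp90ab1, the most abundant of them, averaged 4762 CPM at day 5, 3220 CPM at day 10, 2714 CPM at day 20, 1876 CPM in CD organoids and 2410 CPM in adult mCD.

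Per1, a repressor in the circadian clock that corticosteroids induce directly, followed another order. Its levels (ENSMUSG00000020893.17, chr11:69095217-69109960, plus strand) were 124.2 and 117.3 CPM at day 5, 46.4 and 42.1 CPM at day 10, 141.7 and 146.1 CPM at day 20, 91.7 and 87.6 CPM in CD organoids, and 222.2 and 208.1 CPM in adult mCD. No groups overlapped, and the highest of the UB groups was day 20 and the lowest day 10. It fell by 1.45 from day 5 to day 10 (log2, SE 0.08, adjusted p = 5.20e-08) and rose by 1.70 ± 0.08 from day 10 to day 20 (adjusted p = 6.57e-09). The direction of the CD organoid comparison turned on which UB day was taken: CD organoids were 1.02 ± 0.08 above day 10 (adjusted p = 9.97e-08) and 0.68 below day 20 (difference -0.68 ± 0.08, adjusted p = 4.98e-06). The comparison with day 10 crosses the sets of libraries described above, and that with day 20 does not. Adult mCD stood 1.26 ± 0.08 above CD organoids (adjusted p = 9.34e-09).

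The groups with the highest Per1, adult mCD and day 20, were also those with the highest immediate early genes. Fos, for example, was at 4239 and 4034 CPM in adult mCD and 707 and 932 CPM at day 20, against 1.45 to 20.4 CPM in the other libraries. At day 5 Per1 was at 117.3 CPM or more and Fos at no more than 2.16 CPM. The part of the immediate early response in the level of Per1 was not tested. Per2, another corticosteroid-induced clock gene, averaged 11.1 CPM at day 5, 18.2 CPM at day 10 and 37.9 CPM at day 20. It averaged 55.2 CPM in CD organoids and 100.8 CPM in adult mCD. This order differs from that of Per1, which was lowest at day 10 and higher at day 20 than in CD organoids. Per3 had its highest mean at day 5, with 65.2 CPM, and its lowest in CD organoids, with 27.1 CPM.

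**Figure D3:**
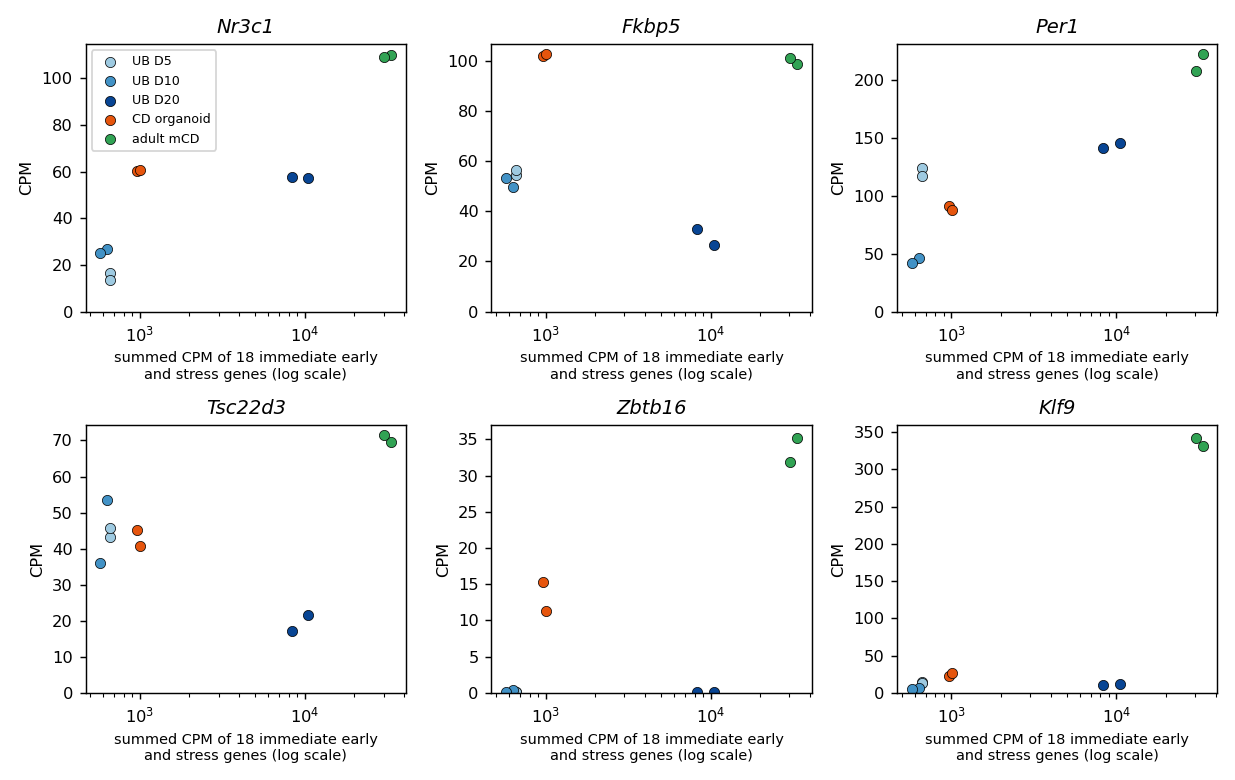
Level of each of the 6 genes in CPM (linear axis from 0) against the summed CPM of 18 immediate early and stress genes (log axis) in the 10 libraries, coloured by group. The day 20 libraries, with sums of 8306 and 10450 CPM, hold high Per1 but the lowest Fkbp5 and Tsc22d3, and they hold Klf9 at 11.3 and 12.1 CPM.

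Tsc22d3, the leucine zipper protein GILZ that restrains inflammatory signalling and, in the principal cell, favours the epithelial sodium channel, stood at like levels at day 5, at day 10 and in CD organoids. The gene (ENSMUSG00000031431.13, chrX:140539528-140600659, minus strand) had 43.2 and 45.7 CPM at day 5, 53.6 and 36.1 CPM at day 10, 17.1 and 21.5 CPM at day 20, 45.1 and 40.7 CPM in CD organoids, and 69.6 and 71.5 CPM in adult mCD. The 2 libraries of day 10 lay on either side of day 5 and of CD organoids, and only day 20 was lower and only adult mCD higher than all other groups without overlap. CD organoids did not differ detectably from UB organoids of day 10 (-0.06 ± 0.15 on the log2 scale, 95% interval -0.39 to 0.27, adjusted p = 0.769), a difference that became 0.26 (adjusted p = 0.0590) without the first library of day 10. From day 10 to day 20 the level fell by 1.21 (SE 0.16, adjusted p = 8.78e-05), and CD organoids exceeded day 20 by 1.15 ± 0.16 (adjusted p = 5.48e-05). Adult mCD exceeded CD organoids by 0.72 ± 0.15 (adjusted p = 0.00138), and by 0.32 (adjusted p = 0.0778) with library totals in place of TMM factors. Its paralog Tsc22d1 had 10-library values from 230.8 CPM at day 5 to 970.1 CPM in adult mCD, with a mean of 614 CPM at day 20, where Tsc22d3 was lowest.

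Promoter sequence bears on which of these genes carry a corticosteroid response element close to the start, and the stretches that hold a motif are shown for that reason. RefSeq starts (GRCm38.p6) gave 7 windows for 4 of the 6 genes, Fkbp5, Per1, Tsc22d3 and Klf9, each of the 250 bases before a start. Searched on both strands, the full palindrome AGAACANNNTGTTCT occurred in 0 of the 7 windows and in 0.00913% of the 32851 windows of all genes, and the looser form GNACANNNTGTNC in 0 of the 7 and 0.387% of all. A single arm of the palindrome, AGAACA or its complement TGTTCT, which the full palindrome would also hold, lay in 1 window, of Tsc22d3, against 16.1% of all windows. The E-box CACGTG, bound by the clock factors, lay in 1 window each of Per1 and Fkbp5, against 6.02% of all, and the cyclic AMP element TGACGTCA in 0 of the 7 against 1.55%. A match is a match of letters only, and a window without one says nothing of binding elsewhere. Capitals mark the E-box in the first 2 stretches, whose first base is at -166 in Per1 and at -169 in Fkbp5 counted from the start, and the single arm, at -185, in the third.
Per1, chr11:69098699-69098898, plus strand: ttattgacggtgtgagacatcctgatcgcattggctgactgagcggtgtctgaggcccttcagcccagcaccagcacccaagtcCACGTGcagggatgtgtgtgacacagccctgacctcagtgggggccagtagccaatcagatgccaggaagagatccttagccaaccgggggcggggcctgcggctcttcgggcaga
Fkbp5, chr17:28486200-28486399, minus strand: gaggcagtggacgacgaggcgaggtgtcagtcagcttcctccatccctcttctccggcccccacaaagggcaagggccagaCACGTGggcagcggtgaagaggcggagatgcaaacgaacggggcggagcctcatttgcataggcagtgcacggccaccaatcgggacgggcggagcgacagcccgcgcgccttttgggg
Tsc22d3, chrX:140600673-140600772, minus strand: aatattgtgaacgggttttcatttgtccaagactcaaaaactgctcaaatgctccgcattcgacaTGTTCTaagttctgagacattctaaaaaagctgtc

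The 2 genes with an E-box in the window did not share a course. From day 5 to day 10 Per1 fell and Fkbp5 did not change detectably, and from day 10 to day 20 Per1 rose and Fkbp5 fell. Of the 18 listed clock genes other than Per1, CD organoids against UB organoids of day 10 had Npas2 called higher (3.86 on the log2 scale) and Hlf, a PAR-domain clock output factor, called lower (-3.51), 2 of 18 beside 10.7% of all genes in either direction. Between adult mCD and CD organoids 6 of the 18 were called higher, beside 9.84% of all genes, and 1, Npas2, lower (-2.97). The higher genes were led by Nr1d1, encoding the repressor REV-ERB alpha, at 5.88 (log2), Dbp at 3.67 and Bhlhe40 at 3.55, with Nr1d2 at 3.13. The time of day of collection was not given in the sources used here.

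Zbtb16, a zinc finger repressor, was barely counted in UB organoids and well counted in CD organoids and adult mCD. In the UB libraries (ENSMUSG00000066687.5, chr9:48654297-48836222, minus strand) it was counted 2 and 2 times at day 5, 9 and 2 times at day 10, and 1 and 2 times at day 20, which is 0.0607 to 0.357 CPM and at or near the 3 counts taken as the floor. The CD organoids gave 215 and 141 counts, or 15.3 and 11.3 CPM, and the adult libraries 467 and 405 counts, or 35.2 and 31.8 CPM. All 6 UB libraries lay below both CD organoid libraries, which lay below both adult libraries. Pooling the counts, CD organoids held 98.6 times the level of the 6 UB libraries, with an exact Poisson interval from 61.5 to 168, and adult mCD 246 times (155 to 418); these intervals cover counting error only. Against UB organoids of day 10 alone, where 11 counts were found, the ratio was 64.3 (35.5 to 130). The first library of day 10 held 9 of these 11 counts and of the 18 in all UB libraries. Without it the ratio to day 10 was 184 (50.6 to 1526), on 2 counts, and without the second library it was 37.6 (19.6 to 83.0). Without the first library CD organoids held 160 times (83.1 to 352) and adult mCD 399 times (209 to 875) the level of the other 5 UB libraries. The fitted change from day 10 to CD organoids was 5.67 ± 0.33 (log2, SE, adjusted p = 7.27e-09), or 6.70 without the first library of day 10 and 5.03 without the second, and from day 20 it was 6.49 ± 0.40 (adjusted p = 1.83e-08), values that depend on the prior count where so few reads were present. Adult mCD exceeded CD organoids by 1.33 ± 0.21 (adjusted p = 0.000135), short of 4-fold. Among the UB days no difference was detectable at this depth (adjusted p = 0.248 for day 10 against day 5 and 0.385 for day 20 against day 10). Summed markers of other cells rose beside it. The 8 intercalated cell markers summed to 1.09 to 7.07 CPM in the UB libraries, 1817 to 1899 CPM in CD organoids and 3269 to 3345 CPM in adult mCD. The 5 leukocyte markers summed to 2.43 to 13.9 CPM in the UB libraries, 46.1 to 52.2 CPM in CD organoids, where 3 of the 5 were at or under 3 counts, and 54.7 to 55.1 CPM in adult mCD. The 5 stromal markers summed to 9.09 to 18 CPM in the UB libraries, 63.7 to 120 CPM in CD organoids and 73.6 to 78.9 CPM in adult mCD. Ptprc alone held 43.7 and 37.4 CPM of the leukocyte sum in CD organoids. Against day 10, 1 of the 5 leukocyte markers was called higher in CD organoids. For the 5 stromal markers it was 3, beside 4.96% of all genes. Whether leukocytes or stromal cells were present was not tested. The part of any of these cells in the level of Zbtb16 was not tested either.

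Klf9, a Kruppel-like repressor induced by glucocorticoid and thyroid hormone, was the gene that set the adult cells apart. It (ENSMUSG00000033863.2, chr19:23141226-23168134, plus strand) was at 14.1 and 12.9 CPM at day 5, 7.10 and 5.21 CPM at day 10, 11.3 and 12.1 CPM at day 20, 23.3 and 26.3 CPM in CD organoids, and 330.6 and 342.2 CPM in adult mCD. Both adult libraries lay far above every organoid library. Adult mCD exceeded CD organoids by 3.76 ± 0.11 (log2, SE, adjusted p = 1.21e-11), a fold of 13.6. CD organoids were above UB organoids of day 10 by 2.00 ± 0.13 (adjusted p = 1.62e-08), just past the 4-fold limit, and above those of day 20 by 1.08 ± 0.12 (adjusted p = 7.29e-06). The first of these fell under 4-fold with library totals (1.91), and also without the second library of day 10 (1.81), the second of CD organoids (1.93) or either adult library (1.996 and 1.998). It fell by 1.13 from day 5 to day 10 (SE 0.13, adjusted p = 1.81e-05) and rose by 0.92 ± 0.13 from day 10 to day 20 (adjusted p = 0.000202). The 18 immediate early and stress genes summed to 30180 to 33400 CPM in adult mCD. Their sum was 8306 to 10450 CPM at day 20, where Klf9 was at no more than 12.1 CPM. Their part in the level of Klf9 was not tested. The markers of proximal tubule, thick ascending limb and endothelium were high in the same 2 libraries as Klf9, and their part in its level was not tested. Its relatives Klf13, with 158.8 CPM, and Klf15, with 32.1 CPM, also had their highest means in adult mCD, at 0.78 and 1.24 (log2) above CD organoids, and neither was called.

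At the threshold of 4-fold few of the members were called, and each call was upward. In CD organoids against UB organoids of day 10, 2 of the 6, Zbtb16 and Klf9, were called higher, while 4.96% of all tested genes were. Against day 20 the count was 1 of 6, Zbtb16, beside 4.74% of all genes. Adult mCD against CD organoids gave 1 of 6, Klf9, beside 9.84%, and adult mCD against the mean of the UB organoids gave 2 of 6, Zbtb16 and Klf9, beside 13.9%. Between UB organoids of day 10 and day 5, and of day 20 and day 10, 0 of 6 were called in either direction, beside 3.41% and 3.39% of all genes. The last count does not mean that the members were still: with an adjusted p of 0.05 or below and no limit on the fold, 3 of 6 passed between days 5 and 10 (32.6% of all genes) and 5 of 6 between days 10 and 20 (29.0%).

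By that looser rule, 5 of 6 passed in CD organoids against day 10, all 5 higher, beside 47.2% of all genes in either direction. Against day 20 it was again 5 of 6, with Per1 the one that was lower, beside 42.2%. From CD organoids to adult mCD 5 of 6 passed, all higher, beside 49.8%, and from the mean of the UB organoids to adult mCD all 6 passed, all higher, beside 62.4%. The median log2 change of the 6 was 1.12 from day 10 to CD organoids and 1.06 from CD organoids to adult mCD, while over all tested genes it was -0.15 and 0.00. Over the 17503 genes kept by edgeR's stricter filterByExpr it was -0.04 and -0.02. The all-gene values in these comparisons include genes with few counts, in which a change is harder to detect. These comparisons share libraries, the CD organoids entering the first 3 and the adult libraries the third and the fourth, and UB organoids of day 10 the first and the fourth.

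**Figure D4:**
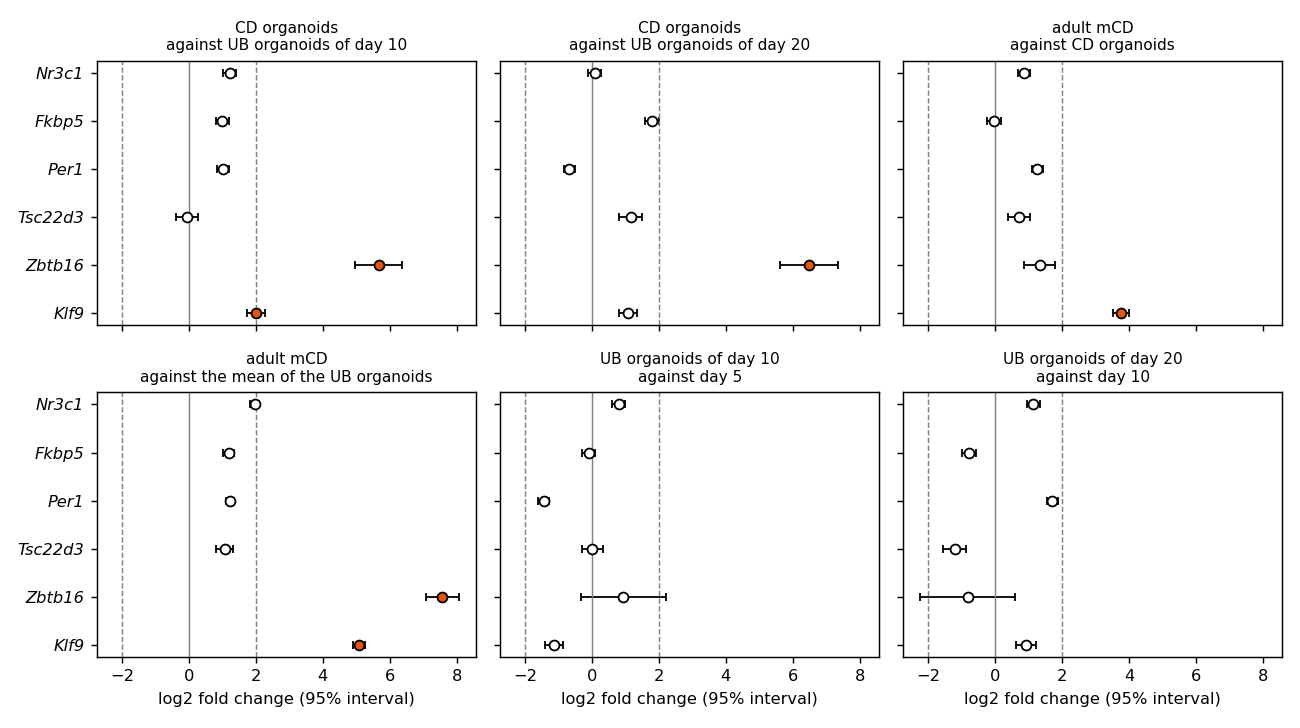
Log2 fold change of the 6 genes in the 6 comparisons, with 95% intervals. Filled points passed an adjusted p of 0.01 and 4-fold, and dashed lines mark 4-fold. Zbtb16 and Klf9 hold all 6 filled points, and Zbtb16's fitted values against UB organoids depend on the prior count.

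The scale of the adult comparison rests on the normalization. With library totals in place of TMM factors the median change of all genes from CD organoids to adult mCD was -0.34 instead of 0.00, and the share of called genes that were higher was 55.6% instead of 68.6%; against the mean of the UB organoids the share was 51.1% instead of 64.4%. On that scaling Nr3c1 was 0.46, Per1 0.87, Zbtb16 0.93 and Klf9 3.37 above CD organoids (log2), each with the same direction as before. The other members did not hold in this way. With library totals Fkbp5 was lower in adult mCD, and the higher level of Tsc22d3 was no longer detectable, as given for each gene above. That all members passing the looser rule were higher in adult mCD than in CD organoids therefore depended on the TMM factors.

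Compared per kilobase of exon, the order of the 6 genes within a group changed with the group. Per1 was the highest at day 5 with 21.4 ± 0.86 CPM per kilobase (SD, n = 2), at day 20 with 25.6 ± 0.54 and in CD organoids with 15.9 ± 0.52. At day 10 the highest was Tsc22d3, with 10.3 ± 2.8, beside Per1 with 7.86 ± 0.55, a gap smaller than the spread of the Tsc22d3 libraries. In adult mCD Klf9 led with 69.9 ± 1.7, before Per1 with 38.2 ± 1.8. Zbtb16 was the lowest in every group, from 0.0158 CPM per kilobase at day 5 to 6.34 ± 0.45 in adult mCD. The deposited RPKM divide by a length that is 3.72 times the exon bases for Per1 and 1.17 times for Klf9, so they were not used to rank genes against each other; within a gene, the 5 groups stood in the same order on both scales for all 6 genes.

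A wider list of 26 genes known to be induced by corticosteroids in some tissue, without the 6, gave a mixed picture in culture. One of them, Tat, had no count in any library, and 25 were tested. In CD organoids against UB organoids of day 10, Sgk1 and Cebpd were called higher, at 5.16 and 4.98 (log2), and Irs2 lower, at -3.33, leaving 22 not called, where 4.96% of all genes were called higher and 10.7% in either direction; the median change was 0.59 beside -0.15 for all genes. Sgk1, the kinase through which aldosterone stabilizes the epithelial sodium channel, was at 0.640 and 0.857 CPM at day 5, 4.32 and 5.29 CPM at day 10, 24.2 and 29.4 CPM at day 20, 169.8 and 178.0 CPM in CD organoids, and 330.7 and 331.2 CPM in adult mCD, rising at every step. In CD organoids against day 20, Cebpd (4.50), Usp2 (3.16), Sgk1 (2.70) and Cdkn1c (2.36) were called higher, 4 of 25 beside 4.74% of all genes, and Irs2 (-4.32), Dusp1 (-4.28) and Zfp36 (-2.97) lower. Adult mCD against CD organoids had 10 of the 25 called higher, beside 9.84% of all genes, and 1, Cdkn1c, lower (-2.02). The largest differences were those of Pck1 (10.3), Angptl4 (8.49), Pdk4 (8.05) and Zfp36 (6.67); Pck1 is a gluconeogenic enzyme of the proximal tubule, whose markers were high in these libraries, and Zfp36 and Dusp1 are also on the list of immediate early genes.

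Genes of the aldosterone pathway were mostly higher in CD organoids, whose medium contained the hormone. The part of the hormone in this difference was not tested. The same medium also added vasopressin and inhibitors of MEK and of Notch processing, and no culture without aldosterone in that medium was available. In CD organoids against UB organoids of day 10, 7 of 10 were called higher, beside 4.96% of all genes, and 0 lower, with a median of 2.81 (log2) beside -0.15 for all genes. Against day 20 it was 8 of 10, beside 4.74%, and 0 lower. Against day 10 they were led by Scnn1a, the alpha subunit of the epithelial sodium channel (6.33), the pump regulator Fxyd4 (5.59), Sgk1 (5.16) and Hsd11b2 (3.46), and included Nr3c2 and Nedd4l (2.08). The 3 not called against day 10 were Edn1 (1.15), Scnn1g (0.80) and Ndrg2 (-0.59). Ndrg2 averaged 50.7 CPM at day 5 and 12.2 CPM in CD organoids. Principal cell markers rose in the same comparison, 6 of 8 being called higher, and 4 of those 8 genes are on the aldosterone list as well. From CD organoids to adult mCD 5 of 10 were called higher, beside 9.84% of all genes, Hsd11b2 (6.07), Ndrg2 (2.85), Edn1 (2.65) and Scnn1g (2.57) among them, and 0 lower. Among the paralogs of the 6 genes, 5 of 18 were called higher in CD organoids against day 10, beside 4.96% of all genes, with Klf2 (7.15), Nr3c2 (3.44), Klf4 (2.99) and Klf6 (2.46) the largest.

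**Figure D5:**
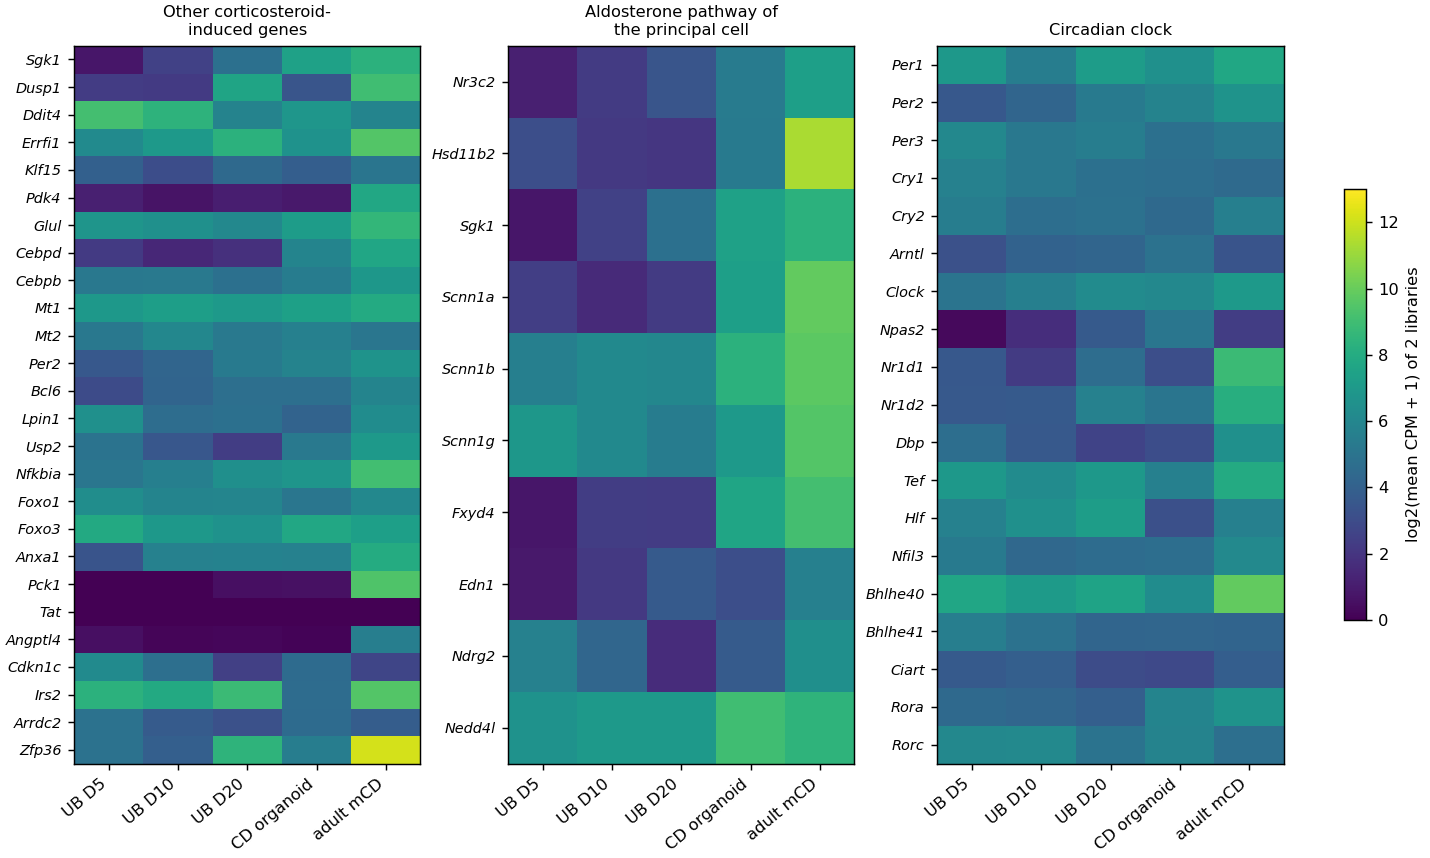
Heat map of log2(mean CPM + 1) over the 2 libraries of each group for the other corticosteroid-induced genes, the aldosterone pathway and the circadian clock. In the middle panel the CD organoid and adult columns are brighter than the UB columns for Scnn1a, Fxyd4, Sgk1 and Nr3c2, while in the left panel Pck1, Angptl4 and Pdk4 are bright only in adult mCD.

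For each of the 6 genes, the other genes with the most similar course over the 10 libraries were found by Pearson's r of log2(CPM + 1) among 10538 genes with a mean of at least 10 CPM. The 10 points come from 5 groups, so r mainly follows the group means and is given as a description. Nr3c1 was closest to Plcb4 (0.994), Abca5 (0.993) and Dnm3 (0.991). Fkbp5 was closest to Slc22a23 (0.980), Pgm2 (0.976) and Zbtb7b (0.975), Per1 to Sim1 (0.980), Susd6 (0.959) and Irf2bp2 (0.955), and Tsc22d3 to Kifap3 (0.970), Taco1 (0.968) and Ciao2a (0.967). The course of Zbtb16 was nearest to those of Paqr5 (0.999), Tmem213 (0.997) and Edn3 (0.997). Klf9 ran with Ndufs1 (0.995) and Ndufv1 (0.995), which encode subunits of mitochondrial complex I, in libraries where the share of counts on mitochondrial genes was 9.64% and 9.86% in adult mCD and 0.969% to 3.39% in the organoids. Zbtb16 had a mean under 10 CPM and so was not among the genes searched. Its highest r with another member was 0.871, with Klf9. None of the other members was among the 3 nearest to another of the 6 genes.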

How the data were processed

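Processed data of 10 RNA-seq libraries were used and the reads were not processed again. The counts deposited for 39273 genes are whole numbers. The paper's methods describe trimming, STAR alignment to mm10 and counting on GENCODE M24 genes with the E/M model of Partek Flow. The upstream software recorded for these data instead includes FastQC 0.11.8, cutadapt 2.5, Trimmomatic 0.36, STAR and edgeR 3.28.1. Which pipeline made the deposited counts was not settled here. The deposited RPKM are these counts per kilobase of the table's length column, and the deposited TMM values are counts scaled by the authors to 1 total per library, a signal used only in an alternative. The deposited length column exceeds the exon bases of GENCODE M21 for many genes, and how it was made is not given in the sources used here. For strand-specific counting no setting is given in the sources used here, and in GENCODE M21 no exon of the 6 genes overlaps one of another gene. Kits differ between sources: Direct-zol with KAPA Stranded in the methods, QIAgen RNeasy with TruSeq in the labels.

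Counts were tested with edgeR 4.0.16 in R 4.3.3 (TMM factors, quasi-likelihood test, prior count 1, Benjamini-Hochberg adjustment over all genes with at least 10 counts in all). All 10 libraries entered 1 fit. Calls needed an adjusted p no higher than 0.01 and a change over 4-fold. Standard errors and 95% intervals were derived from the test statistic. Positions and exon lengths came from GENCODE M21 and promoter windows from RefSeq, both on GRCm38. The edgeR script was tested on simulated data.

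The 6 genes, the gene lists and the tests were chosen with earlier results of these data known. Named are the 6 genes, the other receptor and ligand genes, Sgk1, selected paralogs, up to 4 called genes per list with the largest change in CD organoids against day 10 or adult mCD against CD organoids, and the 3 genes nearest to each member in course, apart from 1 that is not reported here. Fos, Pck1, Avpr2, Hsp90ab1 and the other genes given beside these were named after their values were seen, as members of these lists or as values that move with a result. Alternatives changed the threshold, filter, scaling, prior count, test and libraries, with DESeq2 1.42.0 and limma 3.58.1 among the tests. The ratios of Zbtb16 counts without a library of day 10 were added after seeing the data. Human samples and the primary UB and nephron progenitor libraries were not analysed here.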

Additional observations from a re-analysis of the deposited data

How the results depend on the processing

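With the limit at an adjusted p of 0.05 and none on the fold, the genes passing numbered 11530 in CD organoids against day 10, 10311 against day 20, 12168 for adult mCD against CD organoids, 15234 against the mean of the UB organoids, 7969 for day 10 against day 5 and 7083 for day 20 against day 10, and the members passing 5, 5, 5, 6, 3 and 5. With a prior count of 5 the calls between UB days were 518 and 548, and with only the groups compared in the fit 539 and 505, against 832 and 827. The call of Klf9 in CD organoids against day 10 sat at the 4-fold limit. It was lost, leaving 1 member called, with no filter on low counts (log2 change 1.97), library totals (1.91), a prior count of 5 (1.97) and limma on the deposited TMM values (1.93). Leaving out 1 library at a time gave 1 to 2 members called there; the call was lost without the second library of day 10 (1.81), the second of CD organoids (1.93) or either adult library (1.996 and 1.998). Nr3c1, just under 4-fold in adult mCD against the mean of the UB organoids (1.96), passed it with DESeq2 (2.05), without the first library of day 5 (2.01), and with days 5 and 10 alone in the mean (2.47), an alternative chosen after seeing the data.

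Reversals of sign were limited to differences with an adjusted p of at least 0.248 in the test reported. Fkbp5 in day 10 against day 5 became 0.043 with library totals and 0.042 with limma, and in adult mCD against CD organoids 0.013 with DESeq2. Tsc22d3, from -0.30 to 0.26 in CD organoids against day 10 when libraries were left out, became 0.26 without the first library of day 10 and 0.025 without the second of CD organoids, and -0.018, -0.31, -0.00198 and -0.00211 in day 10 against day 5 without the first of day 5, the first of day 10, the first of day 20 and the second of CD organoids. Zbtb16 became -0.12 in day 10 against day 5 and 0.24 in day 20 against day 10 without the first library of day 10, the other ends of the leave-one-out ranges being 1.55 and -1.42. The causes were not tested. Replicate numbers did not pair the libraries: deviations of same-numbered libraries correlated at -0.102 to 0.107, and with a replicate block the genes called were 2583, 2284, 3414, 5233, 826 and 820 in the order above, with the same number of members called in each comparison. On deposited RPKM the order of the 5 groups was as on CPM for 6 of the 6 genes. Only 2 libraries stood behind each group mean, so the test rests on a spread shared over genes and groups.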
